A study of Mus musculus with 6 samples.

Results

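The 10 genes described here encode the major apolipoproteins made by the mouse liver, namely *Apoa1*, *Apoa2*, *Apoa4*, *Apoa5*, *Apob*, *Apoc1*, *Apoc2*, *Apoc3*, *Apoe* and *Apoh*. They were chosen by name, as the rows of the gene table whose Ensembl ID belongs to these symbols, and make up 10 of 56691 gene IDs. The measurement was RNA-seq of poly(A) RNA from bulk liver, with 3 KPF and 3 WPF samples. KPF were pregnant hChrebp-KO mice, in which *Chrebp* (*Mlxipl*) is deleted by a Cre driven by the albumin promoter, so that the deletion is aimed at hepatocytes and not at the other cells of the liver. WPF were pregnant mice that the labels call WT and the study's methods call Chrebp flox/flox, which makes the floxed allele common to both groups. Both groups were fed HFrD, a high-fructose diet, during pregnancy, and neither a non-pregnant group nor another diet was analysed here. ChREBP is a transcription factor that is activated by sugar metabolites in hepatocytes and drives glycolytic and lipogenic genes.

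Apolipoproteins are the proteins that wrap the lipid droplets of plasma. APOB is the scaffold of VLDL and LDL, APOA1 and APOA2 are the main proteins of HDL, and the smaller exchangeable apolipoproteins move between particles, where they act on lipoprotein lipase (APOA5 and APOC2 as activators, APOC1 and APOC3 as inhibitors) or are recognised by uptake receptors (APOE). The liver makes most of them and secretes them with VLDL and nascent HDL, and their mRNAs are among its most abundant.

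Most of the 10 mRNAs did not pass the test between KPF and WPF. *Apoh* was 2.21-fold lower and *Apoa2* 1.73-fold lower in KPF, *Apoa5* was 1.73-fold higher, and *Apoa4* varied more between mice of the same group than any other member. A gene was called changed when edgeR's quasi-likelihood test on the read counts gave an unadjusted p under 0.05 and the change was at least 1.5-fold. All 10 members passed the filter on low values, a mean FPKM (reads scaled by exonic length and library total) of at least 1. Of these 10, 1 was called higher and 2 were called lower in KPF, where 9.81% of the 10866 genes tested were called in either direction (5.83% higher and 3.98% lower). The same 3 members were those whose 3 KPF values did not overlap the 3 WPF values, against 15.7% of all tested genes (7.55% with KPF higher and 8.15% with KPF lower). Without WPF replicate 4, which is set apart below, 3 members were called, all lower (*Apoa2*, *Apoa4* and *Apoh*). With another library left out the number was 1, 1 and 3 without KPF replicate 1, 2 or 3, and 2 and 1 without WPF replicate 2 or 3. The median log2 fold change (KPF minus WPF) was -0.14 over the members and 0.02 over all tested genes, with 6 members below 0 and 4 above. Of the 10866 genes tested, 5281 were below 0. None of the 10866 genes tested had an edgeR adjusted p under 0.05 (286 of 26984 did without the filter, no member among them), 1176 had an unadjusted p under 0.05, and DESeq2 gave 156 genes with an adjusted p under 0.05, of which *Apoh* was the one member (adjusted p = 0.0318). Across the alternatives the share of all genes called was 9.8% with DESeq2's size factors, 10% with library totals, 9.74% with upper quartile factors, 13.2% with scaling to other plasma proteins, 9.88% with totals of nuclear-gene reads, 9.21% without a filter, 9.67% at a mean FPKM of at least 5, 10.5% with DESeq2, 7.15% and 9.09% with limma at pseudocounts of 1 and 0.1, and 11.3% with the replicate number as a block. With 1 library left out it was 7.12%, 9.54% and 14.9% without KPF replicate 1, 2 or 3 and 5.9%, 5.25% and 10.7% without WPF replicate 2, 3 or 4, and counts of members called under an alternative are read against these shares. An exact two-sided permutation test of 3 against 3 samples can reach no p below 0.1.

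**Figure D1:**
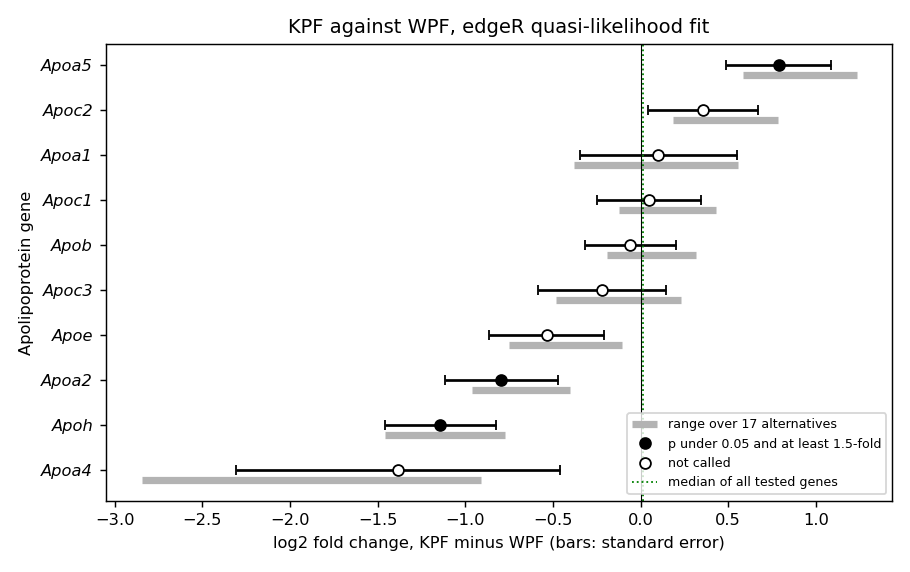
The log2 fold change of each of the 10 members (KPF minus WPF, horizontal axis) from edgeR is plotted with its standard error, filled where the gene was called, above a grey bar that spans its values under the 17 alternatives. *Apoh* and *Apoa2* lie below 0 and *Apoa5* above 0 under every alternative, whereas the bars of *Apoa1*, *Apob*, *Apoc1* and *Apoc3* fall on both sides of 0.

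The 3 members that were called lie on different chromosomes. The 150 bases before their start sites are shown because they are the stretches in which the general transcription machinery and promoter-bound factors meet, with capitals marking the matches to CACGTG, the E-box core bound by ChREBP and related factors, and TATAAA, the TATA box. They are RefSeq sequences of build GRCm38.p6, all on the plus strand, at chr9:46268458-46268607 for *Apoa5*, chr1:171224904-171225053 for *Apoa2* and chr11:108395147-108395296 for *Apoh*.
Apoa5: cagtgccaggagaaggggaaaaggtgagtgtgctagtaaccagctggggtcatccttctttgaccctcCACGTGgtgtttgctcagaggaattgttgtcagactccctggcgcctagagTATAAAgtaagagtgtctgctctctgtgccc
Apoa2: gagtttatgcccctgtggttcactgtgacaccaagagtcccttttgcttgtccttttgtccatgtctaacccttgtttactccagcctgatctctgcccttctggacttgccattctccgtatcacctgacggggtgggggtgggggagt
Apoh: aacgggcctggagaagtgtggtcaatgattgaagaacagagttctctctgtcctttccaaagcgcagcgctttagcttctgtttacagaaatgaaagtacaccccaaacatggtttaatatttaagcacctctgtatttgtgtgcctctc

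Promoters were found for 8 of the 10 members, and the 250 bases before the start used for each were searched on both strands. CACGTG was found in *Apoa5* alone of the 8, at position -82 from the more upstream of its RefSeq starts. It lies at -107 from the other start, the one near a GENCODE M21 transcript start, and the motif occurs in 6.02% of all 32851 promoters of this length. TATAAA was found in *Apoa5* (positions -31 and -56 from the same starts), in *Apob* (-60) and in *Apoa2* (-212, outside the stretch shown). It was also found before another RefSeq start of *Apoe* (2 matches, the first at -100), though not before the start used, and it occurs in 12.4% of all promoters. CAAAGTNCA, a sequence bound by the hepatocyte factor HNF4alpha, was found in *Apoa4* (-182) and in 1.19% of all promoters. The full carbohydrate response element, a pair of E-box-like motifs with mismatches, was not searched for, and a match describes these letters alone and not a bound factor.

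The libraries held between 10694496 and 11567941 counted reads in KPF and between 12988865 and 14496630 in WPF, and the members took 2.99% to 3.42% of the reads in KPF and 3.85% to 4.55% in WPF. *Mlxipl*, the targeted gene, was counted at 182, 709 and 860 CPM (reads after TMM scaling of the libraries) in KPF replicates 1, 2 and 3, with WPF replicates 2, 3 and 4 at 974, 1277 and 891 CPM. The groups did not overlap, KPF being lower, although KPF replicate 3 was close to WPF replicate 4. *Mlxipl* was nevertheless not called, at -0.84 on the log2 scale (SE 0.53, unadjusted p = 0.152, edgeR adjusted p = 0.584), and the exact permutation p was 0.1. By the study's methods, exon 2 is the region removed. Counts summed over the whole gene cannot show whether this exon was lost, and its loss was not tested. Of 14 ChREBP target genes, 11 were called lower in KPF and none higher. Their summed level was 3647 to 4764 CPM in KPF, 20308 and 24933 CPM in WPF replicates 2 and 3, and 3662 CPM in WPF replicate 4, which thus stood with KPF for the targets. The share of reads on the mitochondrial chromosome was 33.2% to 35.01% in KPF and 18.7% to 29.1% in WPF, and 25 other abundant plasma proteins of hepatocytes took 11.2% to 13.0% against 15.0% to 19.96% of the reads. Scaling to these 25 used their summed counts, of which *Alb* was the largest part. It made up 65832 of 122800 CPM in KPF replicate 1 and 150690 of 227000 CPM in WPF replicate 2. What part these differences in read shares had in the results for the members was not tested. For the members and the genes of pathway lists and plasma proteins that are named, the text gives the scalings that ended a call. Calls of cell type markers, *Cfd* among them, were not followed under other scalings. In bulk liver, fewer cells of a type and less RNA per cell cannot be told apart.

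*Apob* (ENSMUSG00000020609, chromosome 12, 8027648 to 8066835, build GRCm39) encodes the scaffold of VLDL. Its level was 1500, 1236 and 1571 CPM in KPF replicates 1, 2 and 3 and 1632, 1555 and 1295 CPM in WPF replicates 2, 3 and 4. The groups overlapped, with KPF replicate 2 the lowest library and WPF replicate 2 the highest, and the log2 fold change was -0.06 (SE 0.26, edgeR adjusted p = 0.945). Its direction is not settled, since the value was 0.31 when the libraries were scaled to the other plasma proteins.

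*Apoa1* (ENSMUSG00000032083, chromosome 9, 46139878 to 46141764), the main HDL protein, was at 17476, 6935 and 11430 CPM in KPF against 16342, 8184 and 8881 CPM in WPF. Each group thus held 1 library near the top of the range, KPF replicate 1 and WPF replicate 2, and lower ones that overlapped. Its log2 fold change was 0.10 (SE 0.45, edgeR adjusted p = 0.945), and it fell to -0.28 without KPF replicate 1.

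*Apoa2* (ENSMUSG00000005681, chromosome 1, 171052623 to 171053948) encodes the second protein of HDL. It was counted at 3067, 4546 and 5226 CPM in KPF against 8947, 6696 and 6626 CPM in WPF. Every KPF library lay below every WPF library, with means of 4280 ± 1104 CPM (SD, n = 3) and 7423 ± 1320 CPM (SD, n = 3). KPF minus WPF gave a log2 fold change of -0.79 (SE 0.32, unadjusted p = 0.0403, edgeR adjusted p = 0.453), and the exact permutation p was 0.1. The direction held under all 17 alternatives and the call under 10 of them. It was lost without KPF replicate 1 (log2 fold change -0.60), without KPF replicate 2 (-0.85), without WPF replicate 2 (-0.64) and without WPF replicate 3 (-0.86). It was also lost with the libraries scaled to the other plasma proteins (-0.40), a scaling that moved the median of all tested genes to 0.38, and without a filter on low values (-0.86).

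*Apoa4* (ENSMUSG00000032080, chromosome 9, 46151994 to 46154757) encodes an exchangeable apolipoprotein of intestine and liver whose hepatic mRNA is known to respond to nutrition. Its level was 871, 317 and 181 CPM in KPF and 1714, 1730 and 129 CPM in WPF. WPF replicates 2 and 3 were above every other library and WPF replicate 4 was below all of them, a range of 13.4-fold within WPF. The log2 fold change was -1.39 (SE 0.93, edgeR adjusted p = 0.607), and the exact permutation p was 0.6. Without WPF replicate 4 it was -1.92 with an unadjusted p of 0.0194 in edgeR, which passed the rule for a call, and the adjusted p was 0.364. Without KPF replicate 1, the highest KPF library, it was -2.26 and was not called (unadjusted p = 0.0673). WPF replicate 4 is also the WPF library with the low level of ChREBP targets. *Fasn*, a ChREBP target of fatty acid synthesis, was at 149, 178 and 164 CPM in KPF against 2574, 2113 and 245 CPM in WPF replicates 2, 3 and 4. *Igfbp1*, a secreted binding protein that rises in fasted liver, was at 81.8, 124 and 12.8 CPM in the same WPF libraries, and *G6pc*, the last enzyme of glucose output, at 113, 332 and 4.57 CPM. Others of the same list were highest in WPF replicate 4 among the WPF libraries, such as *Pck1* (201, 131 and 318 CPM), *Acot1* (5.78, 2.42 and 9.79 CPM) and *Cpt1a* (35.1, 32.9 and 96.8 CPM). Of the 6 enterocyte markers, *Sis*, *Lct*, *Cdx2* and *Vil1* were at 0 to 0.676 CPM in all 6 libraries, while *Fabp2* was at 12.8 to 34.1 CPM and *Anpep* at 52.8 to 114.7 CPM. Their part in the level of *Apoa4* was not tested. Antisense to *Apoa4* lies *Gm47528* with 6 to 65 reads per library, and as it was not stated whether the counting used strand, reads of both cannot be told apart.

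*Apoa5* (ENSMUSG00000032079, chromosome 9, 46179931 to 46183217), the liver-made activator of triglyceride lipolysis, was the one member called higher. It was counted at 372, 422 and 250.1 CPM in KPF against 249, 188 and 167 CPM in WPF. The groups did not overlap, yet KPF replicate 3 exceeded WPF replicate 2 by less than 1 CPM. The means were 348 ± 88.3 CPM (SD, n = 3) in KPF and 202 ± 42.8 CPM (SD, n = 3) in WPF. This amounts to a log2 fold change of 0.79 (SE 0.30, unadjusted p = 0.0307, edgeR adjusted p = 0.430), and the exact permutation p was 0.1. It was positive under all 17 alternatives and called under 9. The call was lost without KPF replicate 1 (0.74), without KPF replicate 2 (0.62), without WPF replicate 3 (0.74) and without WPF replicate 4 (0.66), with scaling to library totals (0.70) and with limma (0.64 and 0.65). When the libraries were scaled to the other plasma proteins it was called at 1.23, against the median of 0.38 over all genes.

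**Figure D2:**
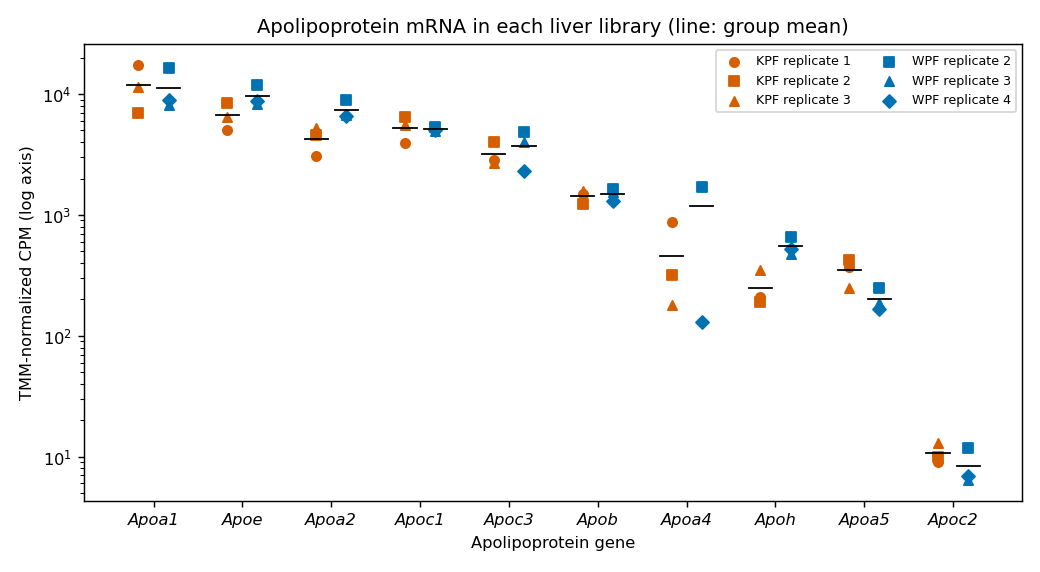
The level of each member in CPM (vertical log axis) is plotted for the 3 KPF (orange) and the 3 WPF (blue) libraries, 1 point for each library with a line at the group mean. KPF lies below WPF without overlap for *Apoa2* and *Apoh* and above it for *Apoa5*, and the low WPF point of *Apoa4*, at 129 CPM, is replicate 4 while replicates 2 and 3 coincide.

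The C apolipoproteins did not differ beyond the spread between samples. *Apoc3* (ENSMUSG00000032081, chromosome 9, 46144231 to 46146934), an inhibitor of triglyceride clearance, was at 2857, 4045 and 2681 CPM in KPF against 4896, 3982 and 2288 CPM in WPF. The lowest library of all was WPF replicate 4 and the highest WPF replicate 2, so that KPF lay within the WPF range. The log2 fold change was -0.22 (SE 0.36, edgeR adjusted p = 0.835), and 0.23 under scaling to the other plasma proteins.

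*Apoc1* (ENSMUSG00000040564, chromosome 7, 19423406 to 19426585), an inhibitor of lipoprotein uptake, was at 3922, 6408 and 5523 CPM in KPF against 5346, 4937 and 5058 CPM in WPF. The WPF values were the most even of any member in either group (SD of log2 CPM 0.059), while KPF spread to both sides of them. The log2 fold change was 0.05 (SE 0.29, edgeR adjusted p = 0.963) and -0.08 with scaling to library totals.

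*Apoc2* (ENSMUSG00000002992, chromosome 7, 19405504 to 19411866), the cofactor that lipoprotein lipase needs, was the lowest member, at 8.98, 9.95 and 13.0 CPM in KPF and 11.7, 6.41 and 6.88 CPM in WPF. The groups overlapped, and the log2 fold change was 0.36 (SE 0.31, edgeR adjusted p = 0.695). These values rest on 90 to 134 reads per library and are uncertain in level. Of the span of *Apoc2*, 99.9% lies inside *Gm44805* on the same strand, and in GENCODE M21 the pair shares 646 of the 813 exonic bases of *Apoc2*. Reads that fall on both genes may have been given to neither, and *Gm44805* itself held 0 to 4 reads per library. *Apoc4*, its neighbour in the same gene cluster, was far higher, at 1026 to 1635 CPM in KPF and 1027 to 1710 CPM in WPF (log2 fold change 0.01).

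*Apoe* (ENSMUSG00000002985, chromosome 7, 19430034 to 19433113), the ligand of remnant receptors, was at 5059, 8407 and 6484 CPM in KPF against 11959, 8206 and 8766 CPM in WPF. KPF replicates 1 and 3 were below every WPF library and KPF replicate 2 fell among them. On the log2 scale the difference was -0.54 (SE 0.33, unadjusted p = 0.141, edgeR adjusted p = 0.575), and the exact permutation p was 0.2. Under 3 of the 17 alternatives *Apoe* was called lower, among them scaling to library totals (-0.64, unadjusted p = 0.0497), a scaling that moved the median of all tested genes to -0.12. Macrophages make APOE too, and the summed level of 11 macrophage markers was 215 to 284 CPM in KPF and 205 to 403 CPM in WPF, with none of the 11 called. The part of these cells in the level of *Apoe* was not tested.

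*Apoh* (ENSMUSG00000000049, chromosome 11, 108234180 to 108305222) encodes beta-2-glycoprotein I, a phospholipid-binding plasma protein that circulates in part with lipoproteins and takes part in coagulation. It was counted at 210.1, 190.1 and 347 CPM in KPF against 654, 473 and 523 CPM in WPF. The highest KPF library lay well under the lowest WPF library, with means of 249 ± 85.5 CPM (SD, n = 3) and 549.9 ± 93.5 CPM (SD, n = 3). On the log2 scale the difference was -1.14 (SE 0.32, unadjusted p = 0.00753, edgeR adjusted p = 0.430), and the exact permutation p was 0.1. The call held in 15 of the 17 alternatives, including each of the 6 in which 1 library was left out, with log2 fold changes from -1.46 to -0.99. Scaled to the 25 other plasma proteins of hepatocytes, *Apoh* was at -0.77 with an unadjusted p of 0.0582 in edgeR and was not called, and the other loss was in the fit with the replicate number as a block. *Prkca*, which overlaps 575 bases of the span of *Apoh* on the other strand, held 62 to 189 reads per library.

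Compared per length, the 10 mRNAs spanned 3 orders of magnitude. The low end of that span is *Apoc2* alone, whose level and place are uncertain because of its overlap with *Gm44805*. In WPF the order of mean FPKM was *Apoa2* (14112 ± 679), *Apoa1* (9021 ± 2341), *Apoc1* (7107 ± 793), *Apoe* (4597 ± 430), *Apoc3* (3690 ± 925), *Apoa4* (644 ± 496), *Apoh* (353 ± 32.5), *Apob* (110.1 ± 8.48), *Apoa5* (81.3 ± 5.15) and *Apoc2* (10.3 ± 2.17, each SD, n = 3). Neighbours whose FPKM ranges overlapped were *Apoa1* and *Apoc1*, *Apoe* and *Apoc3*, and *Apoa4* and *Apoh*. In KPF *Apoa1* (9137 ± 4172) came before *Apoa2* (7493 ± 1707), with overlapping ranges, and then *Apoc1* (6716 ± 1676). *Apoc3* (2997 ± 817) and *Apoe* (2947 ± 814) were alike in KPF. Below them came *Apoa4* (241 ± 198), *Apoh* (146 ± 41.4), *Apoa5* (132 ± 39.2), *Apob* (97.1 ± 9.01) and *Apoc2* (12.3 ± 1.80), and among these 5 only *Apob* and *Apoc2* were neighbours whose ranges did not overlap. *Apoa5* thus stood after *Apob* in the WPF order and before it in the KPF order. FPKM values are scaled to all counted reads, so that they also carry the different share of mitochondrial reads.

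Pairs of members were also set against each other within each library, where the scaling of the libraries cancels. *Apoa5* relative to *Apoc3*, an activator against an inhibitor of lipolysis encoded in the same cluster, had FPKM ratios of 0.0524, 0.0419 and 0.0375 in KPF and 0.0205, 0.0190 and 0.0293 in WPF. Every KPF ratio was above every WPF ratio, by 1.93-fold on average (0.95 on the log2 scale, exact two-sided permutation test, p = 0.1, adjusted p = 0.3 over 6 ratios). *Apoc1* relative to *Apoe*, neighbours on chromosome 7, had ratios of 2.23, 2.19 and 2.45 in KPF and 1.28, 1.73 and 1.66 in WPF. These did not overlap either, and the KPF ratios were 1.48-fold higher with a spread smaller than that gap (0.57 on the log2 scale, exact permutation p = 0.1, adjusted p = 0.3). *Apoa1* relative to *Apoa2* was 2.48, 0.663 and 0.950 in KPF and 0.794, 0.531 and 0.582 in WPF, with overlap and with KPF replicate 1 far above the rest (exact permutation p = 0.2). For the other 3 ratios the groups overlapped, with log2 differences of 0.57 for *Apoc2* to *Apoc3*, -1.06 for *Apoa4* to *Apoa1* and -0.13 for *Apob* to *Apoa1*. The value for *Apoa4* to *Apoa1* moved to -2.17 without WPF replicate 4, to -0.24 without WPF replicate 3 and to -0.52 without KPF replicate 3. That for *Apoa1* to *Apoa2* was 0.89, and 0.34 without KPF replicate 1. For *Apoc2* to *Apoc3* it was 0.30 without KPF replicate 3 and 0.32 without WPF replicate 3.

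**Figure D3:**
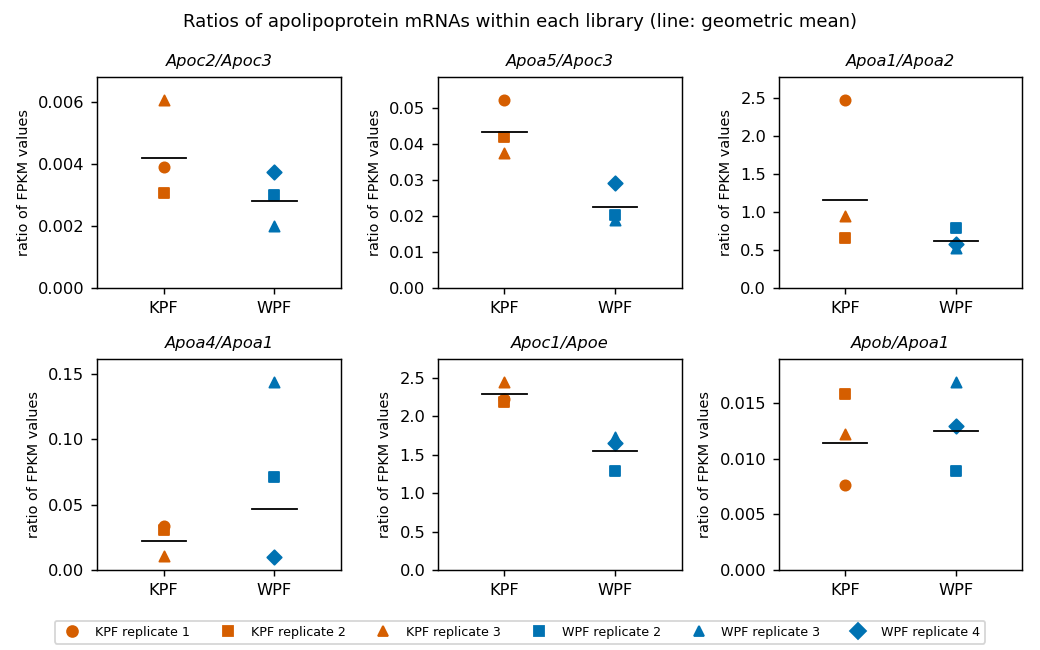
Each panel plots the ratio of the FPKM values of 2 members (axis from 0) in each of the 3 KPF and 3 WPF libraries, with a line at the geometric mean of the group. The KPF points lie above the WPF points without overlap for *Apoa5* to *Apoc3* and for *Apoc1* to *Apoe*, and the groups overlap in the other 4 panels.

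Of the 10 members, 7 lie in 2 gene clusters. *Apoa1*, *Apoc3*, *Apoa4* and *Apoa5* share 43340 bases of chromosome 9, with *Apoc3* on the opposite strand, and *Apoc2*, *Apoc1* and *Apoe* share 27610 bases of chromosome 7, all on the minus strand. Likeness between 2 profiles was measured as the root mean square difference of their log2 CPM over the 6 libraries, each centred on its mean. The median was 0.62 for the 9 pairs within a cluster and 0.57 for the 36 pairs on different chromosomes, so that the median was not smaller within a cluster. The most alike pairs were *Apoa2* with *Apoe* (0.22), *Apoa2* with *Apoh* (0.30) and *Apob* with *Apoc1* (0.30), each on different chromosomes. These values describe 6 libraries that the pairs share.

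Among all genes, those with profiles nearest to *Apoa2* were *Gm8566* (0.088), *Naa38* (0.092) and *Fzd6* (0.11). Nearest to *Apoa5* were *Ccdc107* (0.10), *1810044D09Rik* (0.11) and *Acad12* (0.11). Nearest to *Apoh* were *Cox16* (0.097), *Gm5776* (0.14) and *Zfyve26* (0.15). The members' own spread within a group was near that of other genes, with a median SD of log2 CPM of 0.38 in KPF and 0.29 in WPF, against 0.37 and 0.28 over all genes. *Apoa4* in WPF had the largest SD of the members, 2.16.

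Other genes of the lipoprotein pathway were counted by list. Of 12 tested genes for other apolipoproteins and lipoprotein-bound proteins, 2 were called higher in KPF and 1 lower, with a median log2 fold change of 0.20. The higher ones were *Saa1* (2.28) and *Saa2* (2.65), acute phase proteins carried on HDL, near-identical copies between which reads may be split. *Saa1* was at 17.2, 8.07 and 4.28 CPM in KPF against 1.40, 2.42 and 2.196 CPM in WPF. *Pltp*, which transfers phospholipid between particles, was lower (-1.02), at 10.04, 5.74 and 9.05 CPM in KPF and 18.5, 18.5 and 13.4 CPM in WPF. *Saa1* was called in every fit with 1 library left out (log2 fold change 1.61 to 2.64) and so was *Pltp* (-1.18 to -0.82), whereas *Saa2* was not called without KPF replicate 1 (1.30). The call of *Pltp* was lost with scaling to the other plasma proteins (-0.65, unadjusted p = 0.115), and that of *Saa2* with limma (0.96 and 1.69).

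Of 14 genes of lipoprotein assembly and secretion, 2 were called lower and none higher, with a median of -0.31. *Mttp*, which loads lipid onto APOB, had a log2 fold change of -0.91 (SE 0.37, edgeR adjusted p = 0.453), and *Sar1b*, a GTPase of the vesicles that carry lipoproteins out of the endoplasmic reticulum, one of -0.68 (SE 0.25). Neither was called without KPF replicate 1 (-0.98 and -0.61), KPF replicate 2 (-0.64 for both), WPF replicate 2 (-0.73 and -0.53) or WPF replicate 3 (-0.87 and -0.65), nor with scaling to the other plasma proteins (-0.54 and -0.29), and *Mttp* was not called with upper quartile factors either (-0.87, unadjusted p = 0.0530). The KPF and WPF values of *Mttp* overlapped. *Abca1*, the lipid donor of nascent HDL, was at -0.51 with KPF below WPF in every library, under the fold needed for a call. Their client *Apob* stood at -0.06.

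Of 11 genes of lipoprotein receptors and uptake, 10 had a log2 fold change below 0 and 1 was called lower, with a median of -0.41. Over all tested genes, 5281 of 10866 were below 0. The signs of this list were not followed under other scalings, of which that to the other plasma proteins moved the median of all genes to 0.38. The gene called was *Lsr*, a hepatic receptor of triglyceride-rich particles, at 109, 106 and 106 CPM in KPF and 224, 171 and 116 CPM in WPF (log2 fold change -0.67). Its call held only without WPF replicate 4 (-0.89) among the 6 fits with 1 library left out, and without WPF replicate 2 the value was -0.42. It was also lost with scaling to the other plasma proteins (-0.24), upper quartile factors (-0.64) and nuclear totals (-0.58). Of 7 tested genes of lipolysis, 1 was called higher, *Lpl*, the lipase that strips triglyceride from lipoproteins, at 46.7, 363 and 20.5 CPM in KPF and 30.6, 23.9 and 34.96 CPM in WPF. Its log2 fold change of 2.27 rests on KPF replicate 2, without which it was 0.17 and not called (nor was it without any 1 WPF library, with limma or at a mean FPKM of at least 5), and which is also the library with the highest *Cfd*, an adipocyte gene, at 17.5 CPM. *H19*, a yolk sac and fetal liver marker, was highest in this library too, at 133.8 CPM, whereas *Afp* of the same list was not. The part of any of these in the level of *Lpl* was not tested. *Lipc*, the hepatic lipase, was at 10.9, 125 and 25.1 CPM in KPF and 142, 119 and 89.1 CPM in WPF and was not called.

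Of 17 transcription regulators of apolipoprotein genes, 1 was called, with a median of 0.03. *Nr1h4*, the bile acid receptor FXR, was higher, at 219, 313 and 210.4 CPM in KPF and 138, 174 and 170.3 CPM in WPF (log2 fold change 0.62, SE 0.26). It was not called without KPF replicate 2 (0.41), WPF replicate 2 (0.52), WPF replicate 3 (0.68) or WPF replicate 4 (0.66), nor with library totals (0.48), without a filter (0.56) or with limma (0.48 at both pseudocounts). *Creb3l3*, the factor CREBH that drives *Apoa4* and *Apoa5*, was at 269.6, 223 and 129.7 CPM in KPF and 126, 67.5 and 180.2 CPM in WPF (log2 fold change 0.74, not called). Of 11 tested fasting genes and genes responsive to PPARalpha or CREBH, *Pck1* was called higher (1.85), with KPF replicate 2 far above the rest at 1744 CPM, and *Igfbp1* lower (-2.46). Without KPF replicate 2 the value of *Pck1* was 0.46 and it was not called, nor was it without WPF replicate 2 (1.80) or WPF replicate 3 (1.59), with library totals (1.72) or with limma (1.26 and 1.27), while *Igfbp1* was called under all 17 alternatives. The groups nevertheless overlapped for *Igfbp1*, at 13.7, 8.52 and 17.3 CPM in KPF and 81.8, 124 and 12.8 CPM in WPF. Its exact permutation p was 0.3.

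Other secreted proteins of hepatocytes give the level at which the members can be read. Of 25 other abundant plasma proteins, 21 had a log2 fold change below 0, 1 was called higher (*Itih1*, 0.75, called in 1 of the 6 fits with 1 library left out and not with library totals, at 0.63, without a filter or with limma) and none lower, with a median of -0.17 beside -0.14 for the members. Their largest falls by p were those of *Ttr* (-0.98), *F2* (-0.66) and *Trf* (-0.58), none of which was called, and *Apoh* at -1.14 lay below all 3. Of 9 hepatocyte markers none was called, and their summed level was 70155 to 96217 CPM in KPF and 96863 to 157600 CPM in WPF, most of it *Alb*. Of 9 stellate cell and fibroblast markers, 4 were called higher in KPF, with summed levels of 183 to 401 CPM in KPF and 111 to 141 CPM in WPF. The 5 adipocyte markers summed to 5.79, 23.7 and 2.14 CPM in KPF and to 0 to 0.427 CPM in WPF, without overlap, and *Cfd*, the 1 of them that was tested, was called higher. The part of these markers in the results for *Apoa2*, *Apoa5* and *Apoh* was not tested.

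**Figure D4:**
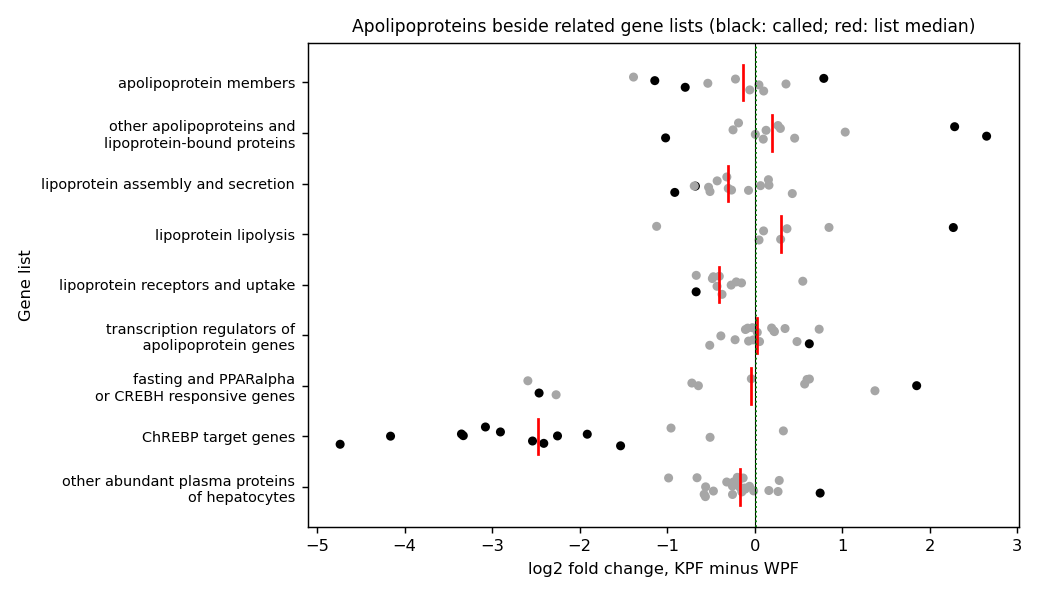
The log2 fold change (KPF minus WPF) of each tested gene is plotted by list, 1 row for each list, in black where the gene was called and grey where not, with a red line at the list's median. The members have a median of -0.14 and the other plasma proteins one of -0.17, while the ChREBP targets reach a median of -2.47.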

How the data were processed

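Liver RNA of 3 KPF and 3 WPF mice was analysed. The authors deposited 1 table in which each gene has a raw count of reads and an FPKM value (the count scaled by exonic length and library total), and per the labels' processing notes cutadapt 1.9.1, HISAT2 2.2.1, HTSeq 0.6.1, DESeq2 and GRCm39 were used. How HTSeq treated strand and reads on overlapping genes was not given in the sources used here. Gene symbols were matched for 52073 of 56691 gene IDs, and 4618 did not match. The coordinates of the table were not combined with those of GRCm38, from which promoters and shared exonic bases were taken.

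Counts were normalized by TMM and tested with edgeR 4.0.16 (quasi-likelihood, R 4.3.3, two-sided, Benjamini-Hochberg adjustment) over 10866 genes whose mean FPKM reached 1, KPF against WPF without covariates. The p-values measure the spread between samples that the labels number separately, and counting error is small for all members but *Apoc2*. Ratios of FPKM were tested by exact permutation. The alternatives used limma 3.58.1 on log2(FPKM + 1) and log2(FPKM + 0.1), DESeq2 1.42.0, other scalings and filters, each library left out, and the replicate number as a block. On simulated counts with 200 changed genes among 10866, the rule for a call found 30% of 1.5-fold, 74% of 2-fold and 94% of 3-fold changes, and called 5.18% of unchanged genes. The simulated spread followed edgeR's trend over expression level, with no spread particular to a gene and no outlying library. Genes of low level were left out of the changed ones. These shares may therefore not hold for the real counts.

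Genes named were the 10 members, *Mlxipl* and *Fasn*, up to 4 genes of each list by p, the 3 genes most like each called member, and genes overlapping a member. *Apoc4*, *Sis*, *Lct*, *Cdx2*, *Vil1* and *Cpt1a* were named after their values were seen. The members, lists and tests were chosen with earlier results of these data known. No 2 libraries of the same group were alike within sampling noise, and libraries of different groups were not compared in this way.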

Additional observations from a re-analysis of the deposited data

How the results depend on the processing

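The number of genes called was 1066 and stayed within 1.5 times of this except for 2486 without a filter on low values, 460 with a mean FPKM of at least 5, and 570 to 1619 with 1 library left out (570 without WPF replicate 3, 641 without WPF replicate 2 and 1619 without KPF replicate 3). The split into higher and lower calls was 634 and 432, and it was 371 and 716 with library totals, 1333 and 98 with scaling to the other plasma proteins, 748 and 326 with totals of nuclear-gene reads (an alternative chosen after seeing the data), and 237 and 540 with limma on log2(FPKM + 1). The number of members called was 3, and 1 with scaling to the other plasma proteins, 1 with the replicate block and 1 to 3 with 1 library left out, 1 without KPF replicate 1, without KPF replicate 2 or without WPF replicate 3. Values that changed sign were those of *Apoa1* (-0.051 with limma at either pseudocount, -0.38 with the replicate block, and -0.28 to 0.49 with 1 library left out, -0.08 without WPF replicate 3 and -0.05 without WPF replicate 4), *Apob* (0.31 with scaling to the other plasma proteins, 0.0099 with nuclear totals, -0.16 to 0.032 with 1 library left out), *Apoc1* (-0.080 with library totals, -0.018 without a filter, -0.11 with limma at either pseudocount, -0.12 to 0.22 with 1 library left out) and *Apoc3* (0.23 with scaling to the other plasma proteins, -0.48 to 0.027 with 1 library left out). The log2 ratio of *Apob* to *Apoa1* was 0.16 without KPF replicate 1 and 0.087 without WPF replicate 3. None of these had passed the test, and the cause was not tested. The replicate block used the numbers 2 and 3 that both groups share, and same-numbered samples did not deviate together (correlation 0.035 for number 2 and about 0 for number 3). The labels do not say whether equal numbers pair the samples, and 2 such correlations cannot settle it. With the block 1231 genes were called, *Apoh* (-1.11, unadjusted p = 0.0528 in edgeR), *Apoa2* (-0.67) and *Apoa5* (0.58) were not called and *Apoa4* was (-2.85). *Apoa4* was also called without a filter (-1.46). Adjusted p-values under 0.05 were found for 286 genes without a filter, 156 with DESeq2, 5 without WPF replicate 4 and none in edgeR or limma under the other alternatives. *Apoc2*, with 90 to 134 reads per library, is the member with the fewest reads.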
